A study of Homo sapiens with 24 samples.

Results

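The lncRNA array features described here are those detected in total RNA of MRC5 cells after hydrogen peroxide and in no total RNA sample of untreated cells. The rule holds for a feature, and another feature of the same transcript could be detected in untreated cells. MRC5 is a line of fibroblasts from human fetal lung. Oxidative stress (OS) was 0.2 mM H2O2 for 2 h, and the control was untreated MRC5 cells, so dose, time and cell line are each a single one. For both conditions RNA was taken from whole cells (total) and from 3 pools of a sucrose gradient, in 3 replicates each, which gave 24 arrays in 8 groups. The untranslated pool joined fractions 1 to 9 (free ribonucleoproteins and single ribosomes), the low pool fractions 10 to 14 (short polysomes) and the high pool fractions 15 to 23 (longer polysomes), after 15 min in cycloheximide, which holds ribosomes on the RNA. The gradients were loaded with lysate cleared by centrifugation, whereas total RNA came from whole cells.

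Of 44002 custom array features, each a 60-base probe for a lncRNA transcript, 905 were well above background on all 3 OS total arrays and on none of the 3 control total arrays. Well above background is the scanner software's own flag for a spot brighter than its local background. Of these, 519 also had an OS total mean at least 1.5 higher on the log2 scale in the deposited normalized table, and these 519 features, for 357 of 22007 transcripts, are the members. They were chosen by their total RNA values, so the total RNA values below are a description and carry no test. The gradient arrays played no part in the choice. The 2 features just inside the threshold, for ENST00000453636.1 and ENST00000566986.1, had differences of 1.5025 and 1.5043, and the 2 just outside, for ENST00000431189.1 and ENST00000597973.1, had 1.4966 and 1.4947.

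Long noncoding RNAs are transcripts longer than small RNAs that hold no long conserved reading frame. Many are scarce, many stay in the nucleus, and some start near the promoters of coding genes and run in the opposite direction. In a sucrose gradient an RNA sediments with the mass bound to it, so its pool shows how heavy its complexes are, and an RNA in a heavy pool is not thereby shown to be translated.

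The features are not independent measurements. For 162 transcripts both array features were members and for 195 a single feature was. Of the 162 pairs, 137 shared at least 30 bases and 103 shared 59, that is, they were the same probe moved by a single base. The 519 features held 490 distinct sequences and fell into 323 groups when features of the same transcript, or with 30 bases in common, were joined. Among the 195 other features of transcripts with a single member, 112 were detected on all 3 OS total arrays, 26 on none of them and 22 on all 3 control total arrays. Only 124 of the 195 were on no control total array, and 43 were on all 3 OS and no control total array. Some transcripts were thus detected in untreated cells by their other feature. Their median OS minus control difference in total RNA was 1.38 on the log2 scale, and 4 of the 195 were lower upon OS.

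The files give no genome position for the custom features. Positions were found for members whose probe shares at least 30 bases with a RefSeq promoter window (a stretch around a gene's start, GRCh38.p14) or with a catalog feature of the same array, whose GRCh37 position the files give. In the promoter windows, 4 member features (0.771%) lay on the strand of the gene and 7 (1.35%) on the opposite strand, beside 0.664% and 0.705% of all lncRNA features. On the opposite strand were ENST00000597530.1 and ENST00000411904.1 at LOC102724193, ENST00000471357.1 at LINC02029 and ENST00000554988.1 at PARP2, which encodes a DNA damage sensor. On the same strand were ENST00000593015.1 at RNFT1-DT, ENST00000534431.1 at LOC105376617 and ENST00000455701.1 at ZNF295-AS1. The other windows and transcripts were not located, and for most members nothing is known here of the place in the genome.

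Stretches of 30 bases of located member probes are printed 5′ to 3′ in the sense of the transcript. ENST00000471357.1, ENST00000425161.1 and ENST00000446649.1, described below, are among them, but none of the 5 brightest members in OS total RNA is. Several hold the letters AATAAA, the commonest signal for cleavage and polyadenylation. The printed stretches were picked and do not give the share of members with these letters. AATAAA and its variant ATTAAA are in capitals. The probe of ENST00000471357.1 lies at chr3:157081667-157081726 on the minus strand of GRCh38.p14, opposite to LINC02029. The probe of ENST00000597530.1 lies at chr9:136648722-136648781 on the minus strand of GRCh38.p14. For the others the position is that of the overlapping catalog feature in GRCh37: chr1:206807997-206808056, minus strand, for ENST00000425161.1, chr21:47572467-47572526, plus strand, for ENST00000446649.1, chr7:136468841-136468900, minus strand, for ENST00000439694.1, chr16:82077941-82078000, minus strand, for ENST00000561826.1, chr16:1310953-1311012, minus strand, for ENST00000568091.1 and chr11:35307454-35307513, plus strand, for ENST00000532760.1. Whether these places are exonic or intronic in other genes was not analysed here.
ENST00000471357.1: ggagtgaatgttAATAAAcaggaaagaaat
ENST00000597530.1: tctacggaagatgtcagagcgtttccctag
ENST00000425161.1: taaaacacccgaatacaagtgttttcttga
ENST00000446649.1: tgtttgtttcatatcattttcttgatttag
ENST00000439694.1: tcatgtcagaacAATAAAagctggatcaaa
ENST00000561826.1: gcatctatcaggAATAAAgctgatgtctta
ENST00000568091.1: tttggctatggtAATAAAgatgctgagaac
ENST00000532760.1: tttagatgggttgggagtgataatATTAAA

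AATAAA stood in 92 of the 519 member probes (17.7%), beside 9.83% of all lncRNA features and 11.7% of those detected on all 3 OS total arrays. Among 93 lncRNA features with a like rise that were also detected in control total RNA, it was 17.2%, so the share was not particular to the members. Counted over distinct sequences, the share was 16.7% for the members, 19.5% for those 93 features and 9.63% for all lncRNA features. ATTAAA was found in 5.97% of the members and 4.26% of all. On the opposite strand AATAAA was found in 3.47% of the member probes and 3.61% of all, and ATTAAA in 3.85% and 2.53%. Members that reached a gradient pool upon OS held AATAAA in 22.8% of 267 probes, and those that reached none in 12.3% of 252. The median GC content was 40% in the members and 41.7% in all lncRNA features. The labelling reaction started from the poly(A) tail, and its part in these shares was not tested.

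In total RNA the members were dim in control and clearly brighter upon OS. The median over the members of the control total mean was 3.67 and that of the OS total mean 6.04, with OS means from 4.90 to 9.20, all as normalized log2 signal. Since control signals were not above background, only a lower bound on the fold is given, set against the dimmest signal that counted as above background. This bound was above 1 for 517 members, at least 1.99-fold in the median, at least 2-fold for 257 members, at least 4-fold for 88 and at most 16.9-fold. More cells with the RNA and more RNA per cell cannot be told apart in such samples.

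A small group of catalog features gave a second reading of some members. For 14 member transcripts, 13 catalog features of the array shared at least 30 bases on the same strand. Of these 13, 11 were likewise well above background on all 3 OS total arrays and on no control total array, and 10 were higher by at least 1.5 on the log2 scale, with differences from 1.05 to 4.20 and a median of 2.68. The catalog feature for ENST00000425161 was at 8.44 ± 0.186 (SD, n = 3) in OS total RNA and at 4.25 ± 0.518 in control. These are other spots on the same arrays with the same or an overlapping sequence, and no independent sample.

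On 23 of the arrays, 14.5% to 36.3% of all lncRNA features were well above background. Replicate 3 of the low pool upon OS stood apart with 93.3%, and is left out of every value below unless it is named. Of fibroblast markers, 5 of 12 were on the array by name and all 5 were detected on every array kept. Of the other cell types' markers, KRT5, VWF and KDR were on no array above background, while SFTPC, CDH5 and 1 of 3 features of PTPRC were detected on all total arrays of both conditions. EPCAM was above background on 2 OS total, 2 OS low, 2 control low and 1 OS high array, and its part in the results was not tested.

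Upon OS, the low pool held most of the members that the gradient arrays detected, the high pool fewer and the untranslated pool fewest. Of the 519 members, 71, 91 and 116 were well above background on the 3 OS untranslated arrays, 286 and 283 on the 2 OS low arrays, and 176, 183 and 154 on the 3 OS high arrays. In control cells the counts were 7, 7 and 32 in the untranslated pool, 115, 72 and 57 in the low pool, and 10, 8 and 24 in the high pool. In each pool the lowest OS array thus lay above the highest control array. In control cells, too, the low pool gave the most signals.

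**Figure D1:**
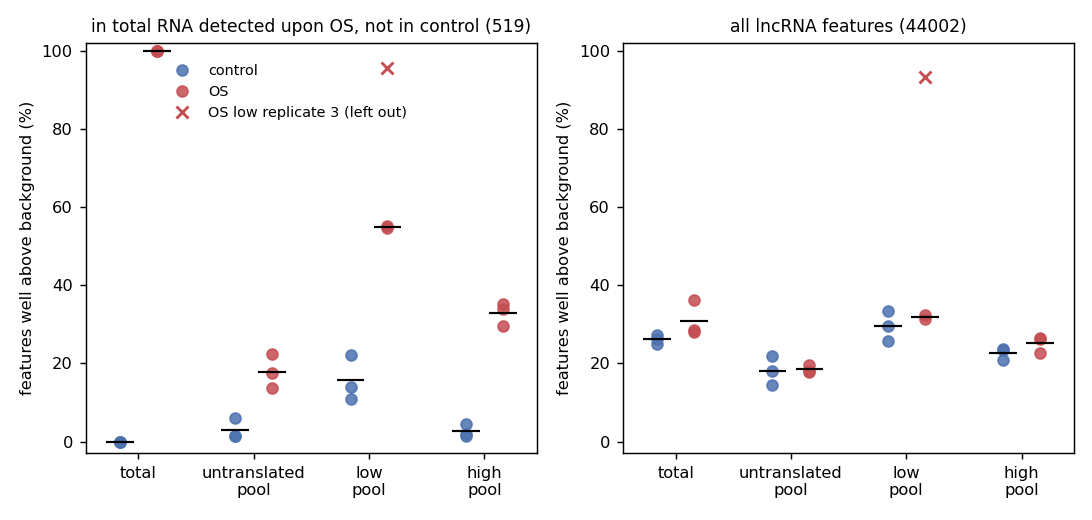
Share of features well above background (%, y axis) on each array, for total RNA and the 3 gradient pools (x axis). The left plot shows the 519 members, which were chosen as detected in OS and not in control total RNA, and the right plot all 44002 lncRNA features. Points are arrays, black lines group means without the crossed array, which is replicate 3 of the low pool upon OS. Among the members, OS low arrays sit near 55%, OS high arrays between 29.7% and 35.3% and OS untranslated arrays between 13.7% and 22.4%, each above its control arrays. The total RNA points are fixed by the choice of members.

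Counting a pool as reached when every array kept was well above background, 259 members (49.9%) reached the low pool upon OS, 122 (23.5%) the high pool and 59 (11.4%) the untranslated pool. For all lncRNA features these shares were 28.1%, 20.2% and 15.3%. Among the 11011 lncRNA features detected on all 3 OS total arrays they were 89.3%, 75.6% and 58.8%. The members' shares were below these in each pool, a difference that carries no test. The order of the pools was the same in both. The shares depended on the detection flag, since with the scanner's positive and significant flag 79.2%, 66.5% and 49.9% of the members were on every array of the low, high and untranslated pool.

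The pools were nested. Of the 122 members in the high pool, 115 were also in the low pool, and of the 59 in the untranslated pool, 58 were. Of all members, 127 reached the low pool alone, 74 the low and high pools, 41 all 3 pools, 17 the untranslated and low pools, 7 the high pool alone and 1 the untranslated pool alone. The remaining 252 (48.6%) reached none, and 180 (34.7%) were above background on no OS gradient array at all. By transcript, 186 of 357 reached a pool, 180 the low, 86 the high and 43 the untranslated pool. In control cells 475 of the 519 members reached no pool.

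Reach was greater for members that were brighter in OS total RNA. The members were sorted by OS total mean into 4 brightness groups of like size, with limits at 5.61, 6.04 and 6.71. The share in the low pool upon OS was 24.6%, 45.7%, 50.8% and 78.5% from the dimmest to the brightest group. The shares in the high pool were 4.62%, 11.6%, 28.5% and 49.2%, and in the untranslated pool 0.769%, 3.1%, 9.23% and 32.3%. Among lncRNA features detected on all 6 total arrays with OS total means in the same ranges, the shares in the low pool were 82.7%, 88.8%, 91.9% and 94.8%, and those in the high pool 50.3%, 64.9%, 80.6% and 92.1%. In every range and pool the members lay below these lncRNAs. These sets differ by how they were chosen, the second also on the control arrays, and probes differ in brightness for the same amount of RNA, so no test is attached.

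**Figure D2:**
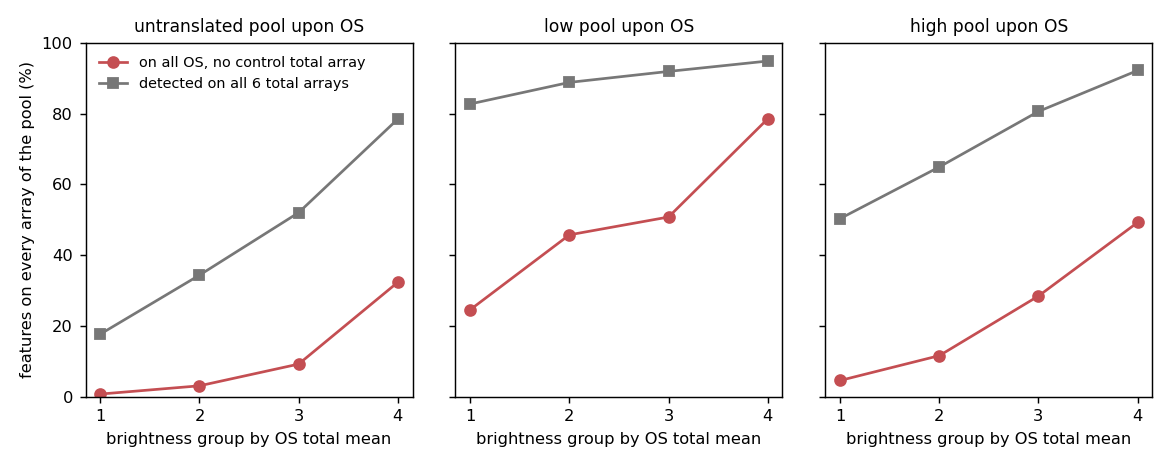
Share of features on every array of a pool upon OS (%, y axis) by brightness group of the members' OS total mean (x axis, 1 dimmest, 4 brightest), for the untranslated, low and high pool. Red circles are the members, grey squares lncRNA features detected on all 6 total arrays whose OS total mean falls in the same ranges. Both rise with brightness, with the members at 78.5% (low) and 49.2% (high) in their brightest group, below 94.8% and 92.1%.

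A further comparison set was lncRNA features with the same rise in total RNA that were detected on all 6 total arrays. This set had 93 features for 64 transcripts, and upon OS 95.7% of them reached the low pool, 90.3% the high pool and 74.2% the untranslated pool. It was brighter, with array medians of 8.58 to 9.03 in OS total RNA against 6.04 to 6.14 for the members. The opposite pattern, detected on all 3 control and no OS total array with a fall of the same size, was rarer, with 53 features for 39 transcripts. Of these, 2 reached the low pool, and none the untranslated or the high pool, in either condition.

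Within the pools, OS was compared with control by limma. A feature was tested where 1 or both groups had it well above background on all arrays kept. A member undetected in a control pool could pass this filter only by being bright upon OS, so the calls below describe the members that passed and are not evidence about all 519. Where a lower bound on a fold is printed below, the p-value beside it tests the log2 difference and not that bound. In the untranslated pool 51 of 59 members tested rose and 0 fell, beside 11.7% of all lncRNA features tested that rose and 11.8% that fell. In the low pool 164 of 259 rose and 0 fell, beside 5.71% and 2.72%. In the high pool 104 of 122 rose and 0 fell, beside 10.3% and 3.6%. At an unadjusted p under 0.05 these were 53, 202 and 117 higher and 0 lower in each pool, a level at which the share over all lncRNA features was not counted. The called features stood for 35, 115 and 74 transcripts. With replicate 3 of the low pool upon OS included, 79 members rose in the low pool.

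ENST00000596379.1 was the member with the greatest difference in total RNA, and it reached all 3 pools. Its first feature measured 4.22, 2.92 and 3.51 in control total RNA and 9.08, 9.19 and 9.02 upon OS. In the high pool it measured 2.91, 3.30 and 3.31 in control cells and 9.31, 9.49 and 9.58 upon OS. The groups did not overlap in either, and the OS values differed among themselves far less than from control. The rise was at least 17.0-fold in the high pool (limma, adjusted p = 4.18e-11), at least 24.0-fold in the low pool (adjusted p = 1.78e-09) and at least 4.24-fold in the untranslated pool (adjusted p = 6.72e-10). Its second feature, which shares 59 bases with the first, gave at least 16.8-fold, 23.3-fold and 3.79-fold.

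ENST00000448587.1 had its brightest signal in the high pool. It measured 3.56, 3.05 and 3.03 in control total RNA and 8.89, 8.90 and 8.84 upon OS, and 3.13, 4.02 and 3.70 in the control high pool against 9.63, 9.72 and 9.73 upon OS. The signal upon OS was at least 20-fold above control in the high pool (limma, adjusted p = 7.58e-12), at least 14.1-fold in the low and at least 2.88-fold in the untranslated pool. Upon OS its mean in the high pool exceeded that in the untranslated pool by 2.26 ± 0.211 on the log2 scale (estimate ± SE, limma adjusted p = 3.74e-08). Its second feature was dimmer, at 8.66 ± 0.082 in the OS high pool, and gave a difference of 2.20 ± 0.598 (adjusted p = 0.00316). ENST00000561318.1, for comparison, differed by 0.41 ± 0.265 between these pools (adjusted p = 0.176), with at least 8.71-fold over control in the low pool.

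ENST00000425161.1 and ENST00000552905.1 had their highest pool signal in the low pool. The first measured 5.09, 4.64 and 5.16 in the control low pool, 1 of these arrays above background, and 8.75 and 8.70 upon OS, a rise of 3.76 ± 0.284 on the log2 scale (limma, adjusted p = 1.71e-07). In the untranslated pool it rose from 3.05, 3.22 and 3.02 to 7.77, 7.48 and 8.18, at least 3.73-fold. The groups were separate in each pool. ENST00000552905.1 measured 3.37, 3.01 and 2.88 in the control low pool and 8.12 and 8.69 upon OS, at least 12-fold higher (adjusted p = 8.9e-11). With replicate 3 of the low pool upon OS included, the low minus untranslated difference of both turned slightly negative, at -0.04 and -0.15, and neither passed the test.

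**Figure D3:**
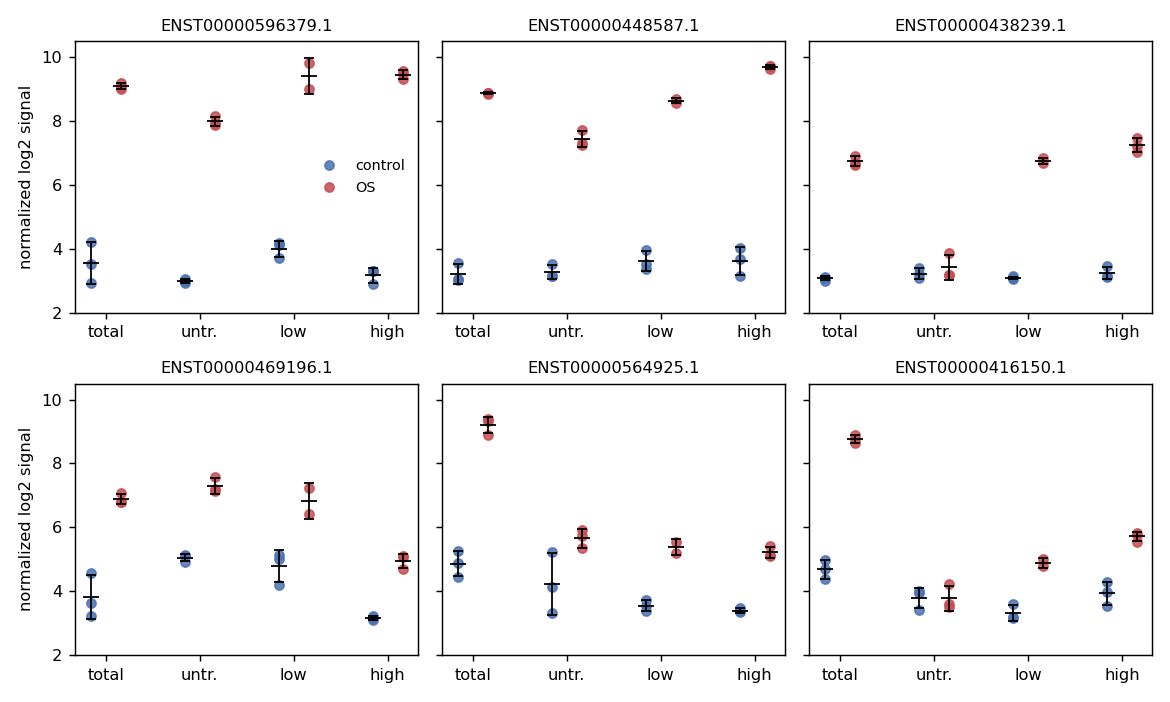
Normalized log2 signal (y axis) of 6 members on each array for total RNA and the untranslated (untr.), low and high pools (x axis). Blue points are control, red points OS arrays, and black bars the mean ± SD of 3 arrays (2 for the low pool upon OS). ENST00000596379.1 and ENST00000448587.1 rise in every pool, ENST00000438239.1 in all but the untranslated pool, and ENST00000564925.1 and ENST00000416150.1 stay at or below 6 in the pools while their OS total means are 9.20 and 8.77.

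Several of the brightest members in total RNA were near background in the gradient. ENST00000564925.1 had the highest OS total mean of all, with 9.32, 8.90 and 9.39 against 5.25, 4.90 and 4.45 in control. In the OS pools it measured 5.73, 5.33 and 5.91 (untranslated), 5.55 and 5.20 (low) and 5.14, 5.10 and 5.41 (high), and of these only the low arrays were above background. Its second feature, at 8.63 ± 0.217 in OS total RNA, had pool means of 5.62, 5.23 and 5.45 and was above background on 2 of 3 untranslated, both low and 2 of 3 high arrays. ENST00000531155.1, at 9.09 ± 0.025 (SD, n = 3) in OS total RNA, was at 5.94, 5.94 and 6.01 in the untranslated, low and high pools, and its high pool did not differ from control by the test (0.80 ± 0.486, limma adjusted p = 0.364). The other feature of ENST00000531155.1, whose sequence does not overlap the member's, was at 3.096 in OS and 3.08 in control total RNA and did not show the rise. ENST00000416150.1, at 8.77, had means of 3.77, 4.89 and 5.71 in the 3 pools, and was above background on every array of the high pool alone, where it rose by at least 1.26-fold (adjusted p = 3.2e-05). Its other feature, with 59 bases in common, was at 5.28 in control and 8.78 in OS total RNA, and at 4.64, 4.56 and 5.67 in the OS pools.

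Over all members, the OS total mean exceeded the highest of the 3 pool means by a median of 0.96 on the log2 scale, and by 2 or more for 108 features, 33 of them in the brightest group of 130. For 131 members a pool mean was above the total mean. Of the 130 brightest, 26 reached no pool. For members below background in the pools such a gap is only the distance to the floor of the signal. ENST00000558633.1, a transcript chosen here after its values were seen, was above background on no pool array. It measured 8.78, 8.21 and 8.87 in OS total RNA and between 3.07 and 3.29 in the mean of each OS pool. Its other feature, which shares 40 bases with the member, was above background on no array and measured 2.94 ± 0.069 in OS total RNA. Since equal masses of RNA were labelled from total RNA and from each pool, a value in a pool is relative to the RNA of that pool and does not give the share of a transcript's molecules found there. MALAT1, a nuclear lncRNA detected through a catalog feature, measured 10.2 ± 0.356 in OS total RNA and 6.78, 4.91 and 4.46 in the mean of the untranslated, low and high pools.

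Upon OS the high and the untranslated pool were compared directly. Of 140 members tested, 59 features of 43 transcripts were higher in the high pool and 24 features of 20 transcripts were lower, so that 71.1% of the called members were higher. Of all lncRNA features tested, 35.6% were higher and 33.9% lower. The median difference over the members tested was 0.50 on the log2 scale. Over all 519 it was 0.06, beside -0.019 over all 44002 lncRNA features. The split depended on the scaling of the arrays. With all probes normalized together 43 members were higher and 35 lower (55.1% higher), with the 75th percentile 46 and 37 (55.4%), with normexp 49 and 38 (56.3%) and in the deposited normalized values 43 and 35. These scalings moved the median over all lncRNA features tested from 0.04 to between -0.29 and -0.575, and the median of the members to between 0.11 and 0.18. Of the 140 members tested, 81 passed the filter through the high pool alone, 18 through the untranslated pool alone and 41 through both. The filter's part in the positive median of the members tested was not tested. Without a filter on dim features, 93 of 518 members were higher and 40 lower, with no such count made over all lncRNA features. With replicate 3 of the low pool upon OS included in the fit, 44 were higher and 12 lower.

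**Figure D4:**
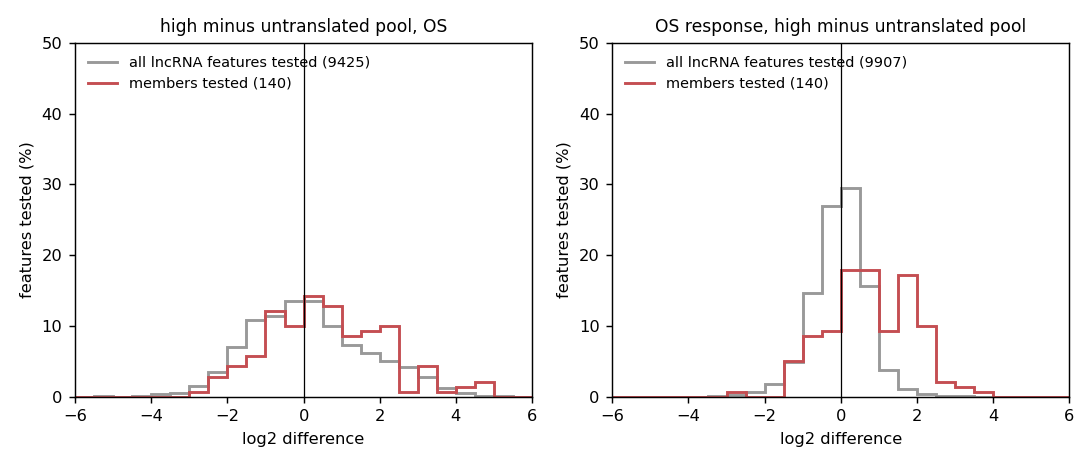
Distribution of log2 differences (x axis, bins of 0.5) as a share of the features tested (%, y axis), for the high minus the untranslated pool upon OS (left) and for the OS minus control response in the high pool minus that in the untranslated pool (right). Grey lines are all lncRNA features tested, red lines the 140 members tested. The members tested lie further to the right in both, with medians of 0.50 against 0.04 and 0.73 against 0.01, but 81 of the 140 entered through a bright OS high pool alone. Over all 519 members the medians are 0.06 and 0.28, and over all 44002 lncRNA features -0.019 and 0.027.

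The largest difference towards the high pool was that of ENST00000593936.1. It measured 2.95, 2.95 and 2.91 in the OS untranslated pool and 7.68, 7.87 and 7.48 in the OS high pool, at least 3.66-fold higher (limma, adjusted p = 1.98e-13), and in control cells its high pool was already above background on all 3 arrays at 6.22, 5.72 and 6.11. ENST00000566986.1 shares 59 of its 60 bases with this probe, and all 60 with the second feature of ENST00000593936.1, so that these readings cannot be assigned to a single transcript. Its difference was 4.30 ± 0.339 and at least 3.91-fold. The 2 features with the identical sequence had control total means of 4.85 and 4.24, and differences in total RNA of 1.50 and 2.16 in the deposited table. ENST00000568966.1, of unrelated sequence, measured 2.96, 2.95 and 2.96 in the OS untranslated and 7.55, 7.72 and 7.51 in the OS high pool, at least 3.46-fold higher (adjusted p = 2.26e-11). Its other feature, of separate sequence, stayed dim, at 3.80 in OS total RNA, 3.65 in the OS untranslated and 4.74 in the OS high pool, and did not enter the test.

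ENST00000513755.1 was the member furthest towards the untranslated pool. It measured 7.24, 7.72 and 6.81 in the OS untranslated pool and 3.45, 5.19 and 4.23 in the OS high pool, where 1 of 3 arrays was above background, a difference of -2.96 ± 0.505 (limma, adjusted p = 4.74e-05). Its second feature gave -2.37 ± 0.365 (adjusted p = 1.64e-05). ENST00000469196.1 measured 7.12, 7.57 and 7.19 in the untranslated and 4.70, 5.09 and 5.07 in the high pool, at least 4.39-fold lower in the high pool (adjusted p = 1.53e-06). Its other feature, of separate sequence, was at 3.49 in OS total and 4.20 in control total RNA and did not enter the test. ENST00000466431.2 was at least 3.98-fold lower there (adjusted p = 6.79e-05), with a difference of -0.80 ± 0.239 by its other feature (adjusted p = 0.0061). That other feature, of separate sequence, was already bright in control total RNA, at 6.52, and at 8.01 in OS total RNA. ENST00000570700.1 was at least 2.66-fold lower in the high pool (adjusted p = 1.52e-05), with a difference of -1.27 ± 0.323 by its other feature (adjusted p = 0.00196). The values of the member features did not overlap between these pools for any of the 4 transcripts. ENST00000471357.1, whose probe holds AATAAA, lay between, with OS means of 7.47, 7.21 and 6.36 in the untranslated, low and high pools and a high minus untranslated difference of -1.12 ± 0.317 (adjusted p = 0.00442). By its other feature the difference was -0.80 ± 0.329 (adjusted p = 0.0375).

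Between the low and the untranslated pool upon OS, 99 of 260 members tested were higher in the low pool and 4 were lower, beside 34.4% and 17.7% of all lncRNA features tested. The median difference was 0.78 for the members tested, beside 0.41 for all lncRNA features tested. Over all 519 members, tested or not, it was 0.43, beside -0.036 over all 44002 lncRNA features. Of the 260, 201 passed the filter through the low pool alone and 1 through the untranslated pool alone, and the filter's part in the direction was not tested. Without a filter on dim features, 111 of 518 members were higher and 15 lower, with no such count made over all lncRNA features. With replicate 3 of the low pool upon OS included, 35 of 253 were higher and 11 lower. Without OS low replicate 2, a single array stood for the low pool and 61 members were higher, and without OS low replicate 1, 2 were lower. ENST00000438239.1 was at 3.42 ± 0.396 in the untranslated and 6.76 ± 0.095 in the low pool, at least 1.94-fold higher (limma, adjusted p = 8.68e-10). Its second feature was at 4.91, 7.50 and 3.22 in the untranslated pool, 1 of these arrays above background, and its difference of 1.36 ± 0.699 did not pass the test (adjusted p = 0.112). Of the pools, ENST00000573382.1 was above background in the untranslated pool alone, with 6.91, 6.55 and 8.01 in control cells and 6.18, 7.47 and 7.37 upon OS, and did not differ between conditions there by the test (-0.15 ± 0.419, adjusted p = 0.826). It was at least 5.04-fold lower in the low pool upon OS (adjusted p = 0.000351). ENST00000572035.1 likewise was bright in the untranslated pool of control cells, at 7.26, 7.51 and 7.67, and differed by -1.98 ± 0.54 on the log2 scale between the low and the untranslated pool upon OS (adjusted p = 0.00541). The other feature of ENST00000572035.1, with 59 bases in common, gave 0.39 ± 0.375 (adjusted p = 0.401). These 2 were the members present on every array of the untranslated pool in control cells.

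The response to OS was then compared between the high and the untranslated pool, as the OS minus control difference in the first minus that in the second. Of 140 members tested, 41 features of 34 transcripts had the greater response in the high pool and 3 in the untranslated pool, beside 8.41% and 5.97% of all lncRNA features tested. The median was 0.73 for the members tested and 0.01 for all lncRNA features tested. Over all 519 members it was 0.28, beside 0.027 over all 44002 lncRNA features. The count and the split varied with the scaling, at 34 and 7 with all probes normalized together, 33 and 0 with the 75th percentile, 33 and 5 in the deposited table, and 25 and 11 with normexp. With replicate 3 of the low pool upon OS included in the fit, 15 and 0 were called. The count of 3 fell to 1 without control untranslated replicate 1, without OS high replicate 1 or without OS untranslated replicate 2. No member was above background on every array of all 4 groups, so each of these differences rests on at least 1 group near background, whose signal has a floor.

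ENST00000438239.1 had the largest such difference, 3.81 ± 0.236 on the log2 scale (limma, adjusted p = 3.67e-08). It measured 3.40, 3.21 and 3.08 in the control untranslated pool and 3.19, 3.19 and 3.88 upon OS, and went from 3.17, 3.12 and 3.46 to 7.22, 7.47 and 7.05 in the high pool. By this feature it was undetected in the untranslated pool in both conditions and detected in the high pool upon OS alone. By its second feature, which was above background on 1 OS untranslated array, the difference was 2.08 ± 0.885 and did not pass the test (adjusted p = 0.104). ENST00000446649.1 had a difference of 3.44 ± 0.303 (adjusted p = 1.29e-06), with 2.93, 2.92 and 2.98 in the control high pool and 6.76, 6.71 and 6.64 upon OS, and its second feature gave 3.27 ± 0.371. ENST00000568966.1 had 2.95 ± 0.341 (adjusted p = 2.07e-05). In the other direction stood ENST00000513755.1, with -2.58 ± 0.715 (adjusted p = 0.0159) by its first feature and -0.78 ± 0.517 (adjusted p = 0.311) by its second, and ENST00000527453.1, with -1.17 ± 0.37 (adjusted p = 0.0318) and -0.50 ± 0.758 (adjusted p = 0.686) by its 2 features.

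The comparison set of 93 features with a like rise that were also detected in control gave other counts for the same tests. Of 84 tested between the high and untranslated pools upon OS, 28 were higher and 29 lower, with a median of 0.22. Of 84 tested for the difference in response, 6 were greater in the high and 5 in the untranslated pool, with a median of 0.28. The difference between this set and the members was not tested. In the OS against control comparisons 52 of 69 rose in the untranslated pool, 56 of 88 in the low pool and 64 of 83 in the high pool, and none fell.

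Some members were present in the low pool of control cells although control total RNA did not show them. On at least 1 array of that pool 133 members were above background. On none of its arrays were 74.4% of the members, beside 64.2% of all lncRNA features. On every array of that pool 39 members of 34 transcripts were, which is 7.51% of the members, beside 23.8% of all lncRNA features. The means of these 39 ran from 5.12 to 6.37, and all 39 were also on both OS low arrays kept. Of the 39, 17 rose upon OS in that pool. In the control high pool 3 members were above background on every array, the features for ENST00000593936.1 and ENST00000566986.1 described above.

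Immediate early and stress genes, which cells induce within minutes to hours of a stimulus without new protein synthesis, were set beside the members from a list chosen with earlier results known. Of 23 such genes 12 had a catalog feature by name, and a gene was counted where any of its features was called. In the high pool 11 of 12 tested rose upon OS and 0 fell, in the low pool 7 of 12 rose, and in the untranslated pool 6 of 11 rose and FOSL1, a component of the AP-1 transcription factor, fell. The response was greater in the high than in the untranslated pool for 9 of the 12, and smaller for 0. The same shares over all catalog mRNA features were not counted, so how unusual these counts are is not known. ATF3, a transcription factor of the stress response, went from 11.2 ± 0.069 (SD, n = 3) to 17.1 ± 0.163 in the high pool through its brightest feature (5.96 on the log2 scale, limma adjusted p = 1.85e-11). Of its 4 features, 3 rose in the high pool, and the other gave 0.13 (adjusted p = 0.888). EGR3, a zinc finger transcription factor, met the detection part of the members' rule. It was above background on no control array of any group, on all 3 OS total arrays at 5.87 ± 0.388, on all 3 OS high arrays at 6.65 ± 0.096 and on no OS untranslated array.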

How the data were processed

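Total RNA and pooled gradient RNA of MRC5 cells (100 ng per array) were labelled from the poly(A) tail with Cy3 and hybridized to custom Agilent arrays with 44002 lncRNA and 17535 catalog mRNA features. The authors deposited Feature Extraction 10.7.3.1 files with the background-subtracted intensity of each spot, and a table of normalized log2 values, made in Partek per the labels. The array design names GRCh37. Depth has no counterpart here, and precision is limited by 3 arrays per group (2 for the low pool upon OS). Replicates were separate RNA preparations per the labels. Control untranslated replicates 1 and 2 share a sample number in their labels, so whether these 2 were separate is not known. With their mean in place of both, 51 members were higher in the untranslated pool against control. In the difference of response between the high and untranslated pools, 41 were then higher and 2 lower.

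On the log2 scale, processed intensities of the lncRNA and of the mRNA features were each quantile-normalized over 23 arrays (OS low replicate 3 left out). All 8 groups entered a single limma model (version 3.58.1, R 4.3.3; lmFit and eBayes), and p-values were adjusted (Benjamini-Hochberg) over all lncRNA and mRNA features tested, with calls at 0.05. A feature was tested where 1 or both groups had it well above background on all arrays kept, and 178 with an outlier mark, 1 of them a member, were left out. The "at least" folds were given where 1 group was above background on no array and the other on at least 1. They were set against the higher of the undetected group's own signal and the dimmest signal above background. A p-value beside such a fold is that of the difference in log2 means. Undetected signals near the floor varied little for some members, and the effect of this on the p-values was not tested. The fit was tested on simulated data. Members and lists were chosen with earlier results of these data known. Members named were the 5 brightest in OS total RNA, up to 3 in each direction per comparison among calls without overlap, up to 5 transcripts with both features, and those at the threshold, 22 transcripts in all, 1 of them only at the threshold. Same-numbered replicates did not deviate together (correlations from -0.144 to 0.234), which cannot show whether their samples were paired. Sequences are from the deposited files, and RefSeq promoter windows from GRCh38.p14. Alternatives were other normalizations, filters, blocks, array sets and member rules.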

Additional observations from a re-analysis of the deposited data

Results flagged for a closer look

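By the interaction term of the limma model, 41 of 140 members tested had the greater response to OS in the high pool and 3 in the untranslated pool. Of all lncRNA features tested, these shares were 8.41% and 5.97%. Upon OS, 81 of the 140 were on every array of the high pool and not on every array of the untranslated pool. Among the transcripts named, the difference was positive for ENST00000596379.1 (1.30 and 2.33 on the log2 scale for its 2 features), ENST00000448587.1 (1.92), ENST00000416150.1 (1.81), ENST00000561318.1 (1.07), ENST00000593936.1 (1.71 and 2.38), ENST00000568966.1 (2.95), ENST00000566986.1 (2.07), ENST00000438239.1 (3.81), ENST00000573382.1 (1.95) and ENST00000446649.1 (3.44). It was negative for ENST00000513755.1 (-2.58) and ENST00000527453.1 (-1.17). The second features of ENST00000448587.1, ENST00000561318.1, ENST00000438239.1, ENST00000513755.1, ENST00000527453.1 and ENST00000573382.1 did not pass the test (adjusted p = 0.212, 0.237, 0.104, 0.311, 0.686 and 0.396). For ENST00000416150.1, ENST00000593936.1, ENST00000568966.1, ENST00000566986.1, ENST00000438239.1 and ENST00000446649.1 the untranslated pool was below background in both conditions, and for ENST00000573382.1 the high pool was.

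Replicate 3 of the low pool upon OS, which entered no comparison, had 496 of the 519 members well above background, more than any control low array (57 to 115), together with 93.3% of all lncRNA features.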

How the results depend on the processing

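Counts of members are given as higher and lower unless stated. The shares of all lncRNA features called under these settings were not counted, so the counts describe the members alone. With replicate 3 of the low pool upon OS included, 79 were higher in the low pool against control, 35 and 11 in the low against the untranslated pool upon OS, 12 lower in the high against the untranslated pool, and 15 and 0 in the difference of response. Without a filter on dim features 136 were higher in the untranslated and 172 in the high pool against control, 93 and 40 in the high against the untranslated pool, and 15 lower in the low against the untranslated pool. With a filter on all groups compared, 0 of 2 tested, 16 of 39 and 3 of 3 were higher in the untranslated, low and high pools, 7 and 7 of 41 in the high and 14 higher of 58 in the low against the untranslated pool, and 0 and 0 for the difference of response, where 0 members could be tested. Members lower in the low against the untranslated pool numbered 7 with all probes normalized together, 7 with the 75th percentile, 12 with normexp and 8 with a minimum difference of 1 for the members. Members lower in the high against the untranslated pool numbered 37 with the 75th percentile and 38 with normexp. For the difference of response, 25 and 11 were called with normexp, and the lower count was 7 with all probes normalized together, 0 with the 75th percentile, 5 in the deposited table and 1 with only the groups compared. With a minimum difference of 2, 37 were higher in the high and 60 in the low against the untranslated pool. Taking positive and significant in place of well above background, 49.9% of the members were on every array of the untranslated pool upon OS, 79.2% of the low and 66.5% of the high pool. The share in the low pool was 53% with a minimum difference of 1 and 48.6% with replicate 3 included, an alternative chosen after seeing the data. ENST00000425161.1 and ENST00000552905.1 turned to -0.039 and -0.15 in the low against the untranslated pool with replicate 3 included. The cause of these changes was not tested.

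Leaving out each array in turn, members higher against control ranged from 49 to 64 in the untranslated, 113 to 150 in the low and 100 to 107 in the high pool, those in the high against the untranslated pool upon OS from 52 to 59 higher and 18 to 27 lower, in the low against the untranslated pool from 61 to 95 higher and 2 to 6 lower, and in the difference of response from 33 to 46 higher and 1 to 4 lower. The share detected ranged from 11.8% to 14.3% in the untranslated, 54.5% to 55.1% in the low and 25% to 27% in the high pool. Same-numbered replicates did not deviate together, which cannot show that their samples were unpaired. With the replicate number as a block the counts were 52, 167 and 107 higher in the untranslated, low and high pools, 59 and 25, 103 and 5, and 42 and 4, which changed no count by over 1.5 times.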
